A study of Mus musculus with 5 samples.

Results

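The 8 genes of hepatic sugar metabolism followed here were Mlxipl, Pklr, Pfkl, Khk, G6pdx, Pgd, Tkt and Taldo1. They were taken by name, and every non-control probe whose RefSeq identifier maps to one of these symbols was used, which gave 11 probes for the 8 genes out of 41174 probes and 17016 named genes on the array. The samples were 5 livers, called livers 1 to 5, of male C57BL/6N mice kept on an ethanol diet for 8 weeks and then given 3 ethanol binges of 5 g per kg. All 5 form 1 group. Age is not given, nor whether each sample is a separate animal. The n below is therefore a number of samples, and a p-value reflects how these samples scatter, which could be technical scatter alone. Each liver (Cy5) was hybridised on its own 2-colour Agilent array against the same purchased RNA (Cy3, Ambion Mouse Assorted Total RNA, whose tissue the labels give as liver and whose donors' diet they do not give). No array had exchanged dyes, so a dye effect of a probe does not cancel. Livers of mice on a control diet were not analysed here: every log2 ratio below sets an ethanol-fed, binged liver against that RNA and is no measure of what ethanol did.

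The liver burns glucose and fructose through shared steps and also turns them into fat and NADPH. Phosphofructokinase and pyruvate kinase catalyse committed steps of glycolysis, and ketohexokinase phosphorylates fructose, which thereby enters below the phosphofructokinase step. The pentose phosphate pathway branches from glucose 6-phosphate: its oxidative arm makes NADPH for fat synthesis and for the reduction of glutathione, and its non-oxidative arm, run by transketolase and transaldolase, returns the pentoses to glycolysis. ChREBP, the protein of Mlxipl, is a transcription factor that responds to sugar metabolites and switches on glycolytic and fat-forming genes in hepatocytes, and the NRF2 factor is a known activator of pentose phosphate genes.

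The first question was how far each gene stood from the reference. All 8 genes had a mean log2 ratio below 0, and 4 of 8 passed the test as lower, namely Pklr, Tkt, Pgd and G6pdx. Across the array 13.0% of 14915 named genes passed as lower, and 53.2% had a mean below 0. The median of the 8 means was -0.59, against -0.02 for all named genes tested. The 8 genes were chosen with earlier results of these data known, so this contrast with all genes is a description and no test. Here and below, a probe passed when limma's test of its mean log2 ratio against 0 gave a Benjamini-Hochberg adjusted p below 0.05 over 31885 tested probes. Among single probes, 5 of the 9 tested member probes were lower against 11.5% of all probes. None of the 9 was higher by limma (0, and 0 at an unadjusted p below 0.05), while 16.2% of all tested probes were, and 14.5% of named genes. At 2-fold or more 1.2% of all tested probes and 0.872% of named genes were higher. Pklr alone of the 8 was also at least 2-fold lower, where 0.429% of named genes were, or 0.32% of probes.

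**Figure D1:**
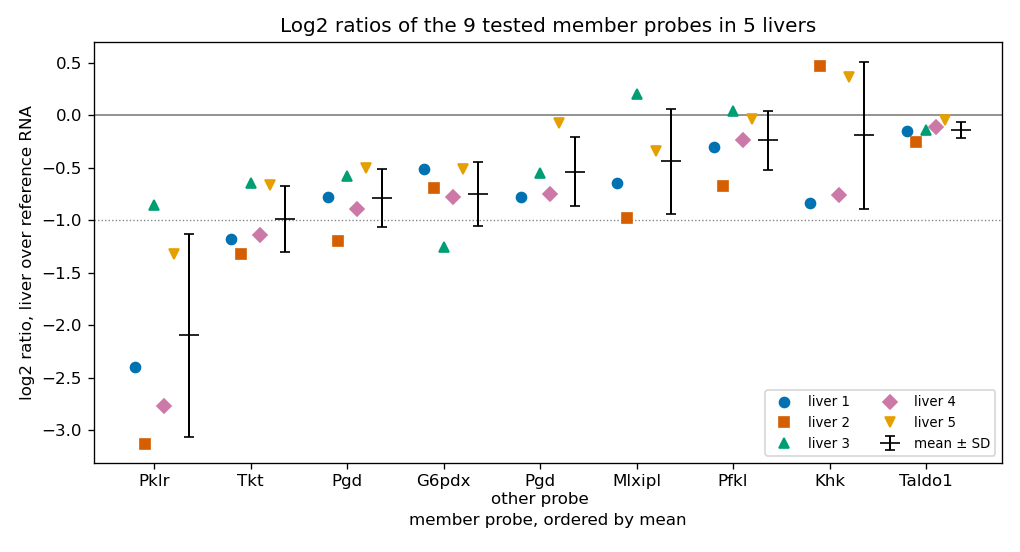
Log2 ratio of liver over reference RNA (vertical axis) for the 9 tested member probes (horizontal axis, ordered by mean). Coloured symbols are livers 1 to 5, black bars the mean with its SD, and the dotted line 2-fold lower; Pklr lies lowest and has the widest spread, from -3.13 to -0.86, and Taldo1 lies closest to 0, from -0.26 to -0.04.

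Mlxipl, which encodes ChREBP, had log2 ratios of -0.64, -0.98, 0.21 and -0.34 in livers 1, 2, 3 and 5. Its spot in liver 4 was marked as an outlier by the scanner software and left out, and kept it read -0.33. Liver 3 was the only liver above the reference. The mean was -0.44 ± 0.50 (SD, n = 4) and did not pass (limma adjusted p = 0.101). It passed without liver 3 (-0.65, adjusted p = 0.019) and with median centring of each array in place of loess (-0.60, adjusted p = 0.0218). Without liver 2 it was -0.26 (adjusted p = 0.286).

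Pklr encodes the pyruvate kinase of liver and red cells, which makes the last step of glycolysis, and its liver promoter is a classical target of ChREBP. Raw median spot signal of its probe was 652, 548, 3807, 887 and 2546.5 in livers 1 to 5, where the reference on the same arrays gave 3563, 5103, 5922.5, 7719 and 9111.5. The log2 ratios were thus -2.40, -3.13, -0.86, -2.77 and -1.32. All 5 livers lay below the reference, livers 3 and 5 least so. The mean was -2.09 ± 0.97 (SD, n = 5), or 4.27-fold lower, at a limma adjusted p of 0.00616. Pklr stayed past the threshold under every alternative run, most narrowly without liver 1 (adjusted p = 0.049).

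Because Pklr stood lowest, its promoter is shown: the 250 bases before the start of the liver-type transcript, from RefSeq, build GRCm38.p6, chr3:89136373-89136622, plus strand. Capitals mark a match to the carbohydrate response element pattern, the kind of site that ChREBP binds and that consists of a pair of E-box-like motifs. The pattern reads the same on both strands.

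Pklr: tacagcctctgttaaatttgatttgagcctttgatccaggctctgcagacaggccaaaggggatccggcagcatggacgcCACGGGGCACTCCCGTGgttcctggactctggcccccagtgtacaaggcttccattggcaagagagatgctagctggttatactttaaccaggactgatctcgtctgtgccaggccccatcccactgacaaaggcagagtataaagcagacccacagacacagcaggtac

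The match, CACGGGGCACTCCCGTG, runs from -170 to -154 relative to the start. All 8 genes matched the RefSeq promoter table, with 11 windows of 250 bases before and 50 after a start, and this window of Pklr was the 1 that held the pattern. Over 32851 such windows of all genes 0.557% held it. The plain E-box CACGTG, searched on both strands, was found in 7.15% of all windows and in 2 of the 11, 1 each of Mlxipl and Khk. The core of the antioxidant response element that NRF2 binds, TGACNNNGC on either strand, was found in 12.4% of all windows and in 3 of the 11, those of G6pdx, Pgd and Pklr, but for the latter 2 it lay just after the start. The sites that lie before a start are given with 6 bases on each side, capitals marking the match, to show how they differ from the paired site of Pklr.

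Mlxipl: gccatcCACGTGctaagg

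Khk: ccccgtCACGTGacaccg

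G6pdx: gggtcaGCTCAGTCAaagcac

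These are matches of letters in these windows and say nothing of whether a factor binds them in these livers.

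Pfkl, the liver subunit of phosphofructokinase, had log2 ratios of -0.30, -0.67, 0.04, -0.23 and -0.04 in livers 1 to 5. Liver 2 lay lowest, and livers 3 and 5 lay within 0.05 of the reference. The mean of -0.24 ± 0.28 (SD, n = 5) did not pass (limma adjusted p = 0.124), and it was -0.13 without liver 2. Its probe was dim, at 257 to 543.5 in liver and 362.5 to 507 in the reference, but exceeded background clearly in each channel of every array.

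Khk, ketohexokinase, lay on both sides of the reference. Its brighter probe read -0.84, 0.47, -0.76 and 0.37 in livers 1, 2, 4 and 5, with the spot of liver 3 left out as an outlier. Livers 1 and 4 were thus low, and livers 2 and 5 high. The mean of -0.19 ± 0.70 (SD, n = 4) did not pass (limma adjusted p = 0.606). The mean was 0.023 without liver 1 and -0.0013 without liver 4, and -0.41 without liver 2 or -0.38 without liver 5.

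The other probe of Khk kept only 2 values after outlier spots were left out and was not tested. With outlier spots kept it read -0.86, 0.39, 0.12, -0.88 and 0.25 in livers 1 to 5. The brighter probe with outlier spots kept read -0.89, 0.45, 0.18, -0.78 and 0.36. Both probes therefore placed livers 1 and 4 below the reference and livers 2, 3 and 5 above it. Raw liver signal of the brighter probe was 8215 and 9990.5 in livers 1 and 4 against 26493, 26745 and 20484.5 in livers 2, 3 and 5.

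**Figure D2:**
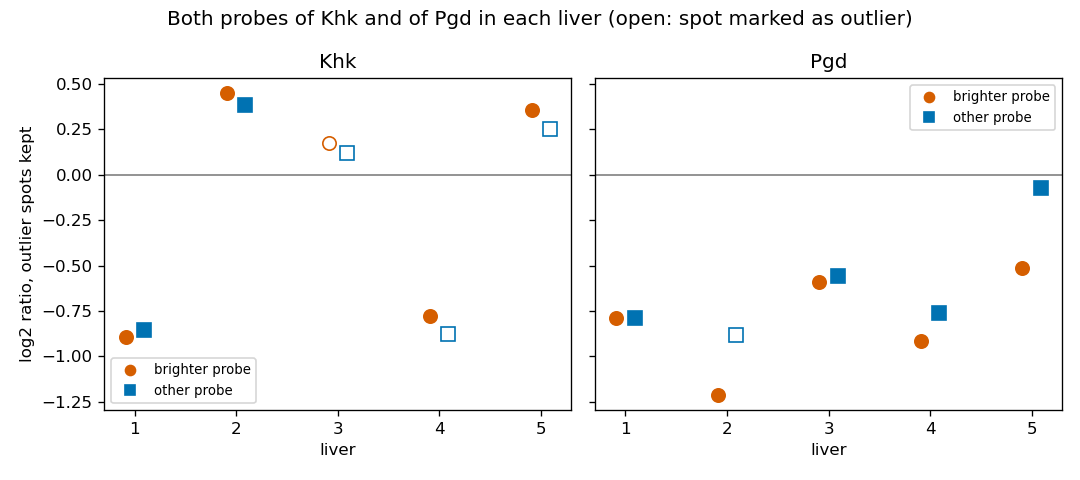
Log2 ratio of liver over reference (vertical axis, outlier spots kept) of both probes of Khk (left) and of Pgd (right) in livers 1 to 5 (horizontal axis). Circles are the brighter probe, squares the other, and open symbols are spots marked as outliers; both probes of Khk lie between -0.89 and -0.78 in livers 1 and 4 and above 0 in the rest, and both probes of Pgd lie below 0 in all 5.

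Both dehydrogenases of the oxidative arm of the pentose phosphate pathway, G6pdx and Pgd, were lower. G6pdx, the X-linked glucose-6-phosphate dehydrogenase that opens the pathway, had log2 ratios of -0.51, -0.69, -1.26, -0.78 and -0.51. Liver 3, in which Pklr and Mlxipl were highest, was the lowest for G6pdx. The mean was -0.75 ± 0.30 (SD, n = 5), or 1.68-fold lower (limma adjusted p = 0.00238). Its probe was the dimmest of the tested member probes in liver, at 177 to 255 against 303.5 to 527 in the reference.

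Pgd, 6-phosphogluconate dehydrogenase, makes the other NADPH of that arm. Its brighter probe read -0.78, -1.20, -0.57, -0.90 and -0.51 in livers 1 to 5, a mean of -0.79 ± 0.28 (SD, n = 5) or 1.73-fold lower (limma adjusted p = 0.00147). The other probe read -0.78, -0.55, -0.75 and -0.07 in livers 1, 3, 4 and 5, with liver 2 left out as an outlier spot. It was also lower, at -0.54 ± 0.33 (SD, n = 4; limma adjusted p = 0.0185). That second call was lost without liver 1 (adjusted p = 0.0535), 3 (0.0568) or 4 (0.0814), and in this setting the 2 probes differed most in liver 5. With processed signals the other probe's mean was -0.86 (limma adjusted p = 0.00401). There the brighter and the other probe read -0.45 and -0.34 in liver 5, and lay further apart in liver 1, at -0.92 and -1.20.

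In the non-oxidative arm the 2 enzymes stood apart. Tkt, transketolase, moves 2-carbon units between sugar phosphates and read -1.18, -1.32, -0.65, -1.14 and -0.66 in livers 1 to 5. Livers 3 and 5 were again the least low. The mean was -0.99 ± 0.31 (SD, n = 5), or 1.98-fold lower (limma adjusted p = 7.37e-04), which is just short of 2-fold. It passed 2-fold with median centring (-1.15), with outlier spots kept (-1.01) and without liver 3 (-1.08) or 5 (-1.07). Raw signal was 2070 to 5868 in liver and 4748 to 10281 in the reference. The other Tkt probe was dim in both channels, at 36 to 56 in liver and 73.5 to 107 in the reference, and was well above background on 1 array in liver and 0 in the reference, so it was not tested and has no usable ratio.

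Taldo1, transaldolase, read -0.15, -0.26, -0.14, -0.11 and -0.04. All 5 livers lay below the reference by a small amount, and the mean of -0.14 ± 0.08 (SD, n = 5) did not pass (limma adjusted p = 0.166). From the processed intensities, as from the authors' deposited log2 ratios, it was -0.25 and passed (limma adjusted p = 0.0256 and 0.0252). Its raw signal was 1006.5 to 1418.5 in liver and 1205 to 1701 in the reference.

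Set in order of mean ratio, with 1 probe per gene, the genes ran Pklr, Tkt, Pgd, G6pdx, Mlxipl, Pfkl, Khk and Taldo1. The 7 neighbouring pairs were compared within livers by an exact sign-flip permutation test (two-sided), which cannot go below 0.0625 with 5 livers, so no pair could pass. Pklr lay below Tkt in 5 of 5 livers, a mean difference of -1.105 ± 0.67 (log2, SD; exact p = 0.0625, adjusted over 7 pairs 0.219). Tkt lay below Pgd in 5 of 5 livers, a smaller mean difference of -0.20 ± 0.13 (exact p = 0.0625, adjusted 0.219). The remaining neighbours differed by less than the SD of their own differences, with the direction held in 2 or 3 livers of each pair. Between Pgd and G6pdx, for example, the mean difference was -0.04 ± 0.45.

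The other quantity was the spread between livers. Pklr had an SD of 0.97, which 0.371% of the 25890 probes clear of background in liver and reference on every array exceeded, Khk 0.70 (1.36% exceeded it) and Mlxipl 0.50 (4.14%). The median SD of those probes was 0.18. For 181 probes printed many times on an array, the median SD was 0.09 between spots on 1 array. Between livers it was 0.17 for these 181, each taken as the average of its spots. Taldo1, with an SD of 0.08, had a smaller spread than 94.4% of the 25890 probes. In the F test of a probe's variance against the prior variance at its brightness, 0 member probes and 0.0% of all probes passed after adjustment in limma's fit, with a smallest adjusted p of 0.521. Without adjustment 1370 probes (5.29%) and 3 member probes fell below 0.05 in that limma fit. The unadjusted values were 0.00224 for Pklr, 0.00805 for Khk and 0.0361 for Mlxipl. The prior was fitted to the variances of these same probes between livers, so a share near 5.29% and few adjusted passes are largely built in. The test asks whether a probe is unusual among probes and cannot tell whether the livers differ.

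The channels were also described apart. The liver channel holds different samples and the reference channel 1 RNA hybridised 5 times, and over the same 25890 probes the liver range exceeded the reference range in 71.6%, with medians of 0.54 and 0.38 log2 units. After normalization of both channels across arrays, the liver channel of Pklr ranged over 2.31 log2 units (lowest in liver 2, highest in liver 5), and the reference channel, the same RNA on every array, over 0.57. A wider liver range than that of Pklr was found for 0.583% of probes. For Khk these ranges were 1.46 and 0.24 and for Mlxipl 1.17 and 0.41 (4 arrays each). For Tkt they were 0.88 and 0.34. For G6pdx the liver channel spanned 0.64 and the reference 0.20. Taldo1 had 0.48 in the liver channel and 0.52 in the reference.

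**Figure D3:**
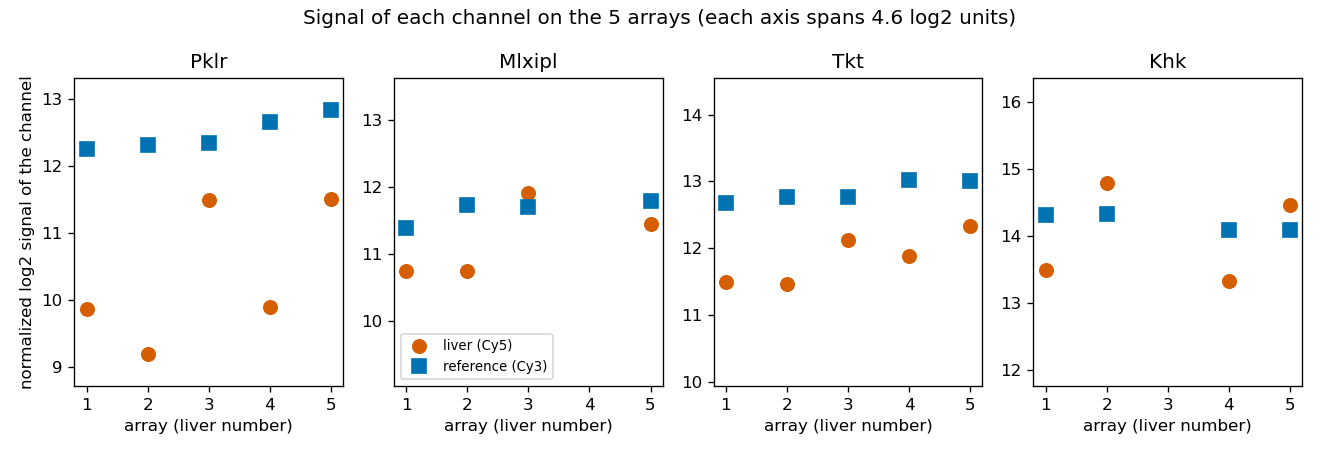
Normalized log2 signal of the liver channel (circles) and of the reference channel (squares) on the 5 arrays (horizontal axis) for Pklr, Mlxipl, Tkt and Khk. For Pklr the reference lies between 12.25 and 12.83 while the livers lie lower and range over 2.31 log2 units; array 4 for Mlxipl and array 3 for Khk are absent because the spot was an outlier.

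The livers did not rank alike for all members. Pklr, Mlxipl, Pfkl, Tkt and the brighter Pgd probe were lowest in liver 2, and livers 3 and 5 held their highest values. Taldo1 too was lowest in liver 2 and highest in liver 5. G6pdx was lowest in liver 3, and Khk was highest in liver 2. Averaged over the members measured, the livers stood at -0.85, -0.97, -0.46, -0.96 and -0.38. Red blood cell markers were examined because the same gene also makes the pyruvate kinase of red cells: their mean log2 ratio was -1.12, -0.56, -0.59, -0.37 and -0.27 in livers 1 to 5, lowest in liver 1, and their summed signal 4610 to 20511 in the livers and 16356 to 27600 in the reference. Of these markers, 5 of 6 were well above background on every array in each channel. By the test 3 of 5 were lower and 0 higher. Some other cell types' markers lay below the reference too. Of 7 sinusoidal endothelial markers 4 were lower and all 7 had a mean below 0 (median -0.34). Of 7 Kupffer cell and macrophage markers 4 were lower and 6 below 0 (median -0.34). Others did not: of 8 hepatocyte markers 1 was lower, Ass1 at -0.58, and 2 higher, Alb at 1.15 and Apoa1 at 0.94 (median 0.18). Neutrophil markers had 0 lower and 1 higher (median 0.12), and lymphocyte markers 0 lower and 2 higher (median -0.06). Stellate cell and bile duct markers had medians of -0.09 and -0.01, with 1 and 2 lower. The part of these markers in the values of Pklr and the other members was not tested. In such bulk RNA fewer cells of a type and less RNA per cell cannot be told apart.

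Genes whose profile over the livers lay nearest to a member's were sought among 11807 named genes, each centred on its own mean, by root-mean-square difference. Nearest to Pklr was Srebf1, the gene of the insulin-responsive lipogenic factor SREBP1, at a difference of 0.39, with ratios of -1.77, -2.07, -0.11, -1.46 and -1.16. Next came Tkfc, the triokinase of fructose use, at 0.42, with -0.62, -0.69, 0.49, -0.63 and 0.08, and Celsr1 at 0.43. Over 4 livers Dolpp1, Cacng7 and Sucnr1 lay nearest to Mlxipl (0.06, 0.06 and 0.07), and over 5 livers Slc17a8, Kctd2 and the galactokinase gene Galk1 nearest to Tkt (0.06, 0.06 and 0.07). With so few livers and so many genes, close profiles are easily found.

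The rest of the pathways was then described, each gene by its brightest tested probe, beside 13.0% lower and 14.5% higher among all named genes. Of 12 other glycolytic enzymes and transporters 3 were lower and 0 higher (median -0.24). Among the lower were Eno1, enolase, at -1.18 ± 0.33 (n = 4), and Gapdh at -0.49 ± 0.15 (n = 3). The limma adjusted p was 8.77e-04 and 0.0121. Near-identical copies of Eno1 and Gapdh elsewhere in the genome could share their probes' signal. Without liver 1 the count of lower genes in this list was 1. Gpi1, at -0.46 ± 0.49, did not pass (0.064).

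Of 10 other fructose and polyol genes 1 was lower, Akr1a1 at -0.31, and 1 higher, Akr1b7 at 0.17. The reference signal of Akr1b7 was well above background on 1 array only, so the size of its ratio depends on the background correction. With processed signals and in the deposited ratios its mean was 0.61, just short of passing (limma adjusted p = 0.051 in each). Its call was also lost without the trended robust prior and without each liver in turn. Without liver 3 or 4 the lower genes of this list numbered 2.

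Of 12 further pentose phosphate and ribose genes 2 were lower, Shpk at -0.55 and Rpe at -0.31, and 0 higher (median -0.03). Pgls, the lactonase between G6pdx and Pgd, read -0.19 ± 0.08 (n = 5; limma adjusted p = 0.0665), and H6pd, the enzyme of the same reactions inside the endoplasmic reticulum, 0.29 ± 0.38 (n = 4; 0.149). Another Shpk probe read 0.51 and passed as higher (limma adjusted p = 0.014), so the direction of Shpk depends on the probe. Another Rpe probe read -0.07 (limma adjusted p = 0.541), so the Rpe call is not borne out by it. The count of lower genes was 1 without liver 2, 3 or 4, Rpe being the one lost, and without liver 3 there was 1 higher. Of other cytosolic NADPH sources only 2 genes were tested: Me1, malic enzyme, at -1.95 ± 0.49 (n = 5; adjusted p = 2.48e-04), and Mthfd1 at -0.05.

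Among regulators of glycolytic flux 4 of 13 were lower and 3 higher. Lower were G6pc, the glucose-6-phosphatase that releases glucose, at -1.79 ± 1.03 (n = 5), and the pyruvate dehydrogenase kinases Pdk4 at -1.19, Pdk1 at -0.99 (n = 4) and Pdk2 at -0.42. Higher were Pfkfb4 at 0.53, Pfkfb2 at 0.45 and Tigar at 0.28. The reference signal of Pfkfb4 was well above background on 3 arrays only. With probes required to exceed background in both channels of every array, 2 regulators were higher. Other probes of Pfkfb2 and Tigar read -0.07 (Pfkfb2) and -0.14 and -0.17 (Tigar). With median centring neither Pfkfb2 nor Tigar passed (limma adjusted p = 0.0721 and 0.131). The Tigar call was also lost without liver 1, 2, 4 or 5 (adjusted p from 0.0512 to 0.143), and that of Pdk2 without liver 1, 2 or 5 (from 0.0596 to 0.0793). G6pc read -0.12 in liver 3 and -1.77 or lower in the other livers, and its call was lost without liver 1 (0.0679), where 2 regulators were lower.

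Of 17 tested ChREBP partners and targets 8 were lower and 1 higher (median -0.21). Lower besides Me1 and G6pc were Elovl6 at -1.46 (n = 4), Fasn, fatty acid synthase, at -1.38, Srebf1 at -1.31 ± 0.75, Gpam at -0.78, Acaca at -0.40 and Pnpla3 at -0.38. Without liver 1 the count of lower genes was 4, with G6pc, Elovl6, Srebf1 and Pnpla3 lost; Pnpla3 was also lost without liver 5. Txnip, which sugars induce through ChREBP, had 1 probe at 0.39 (limma adjusted p = 0.0417) and another at -0.48 (0.00652), so its direction depends on the probe. The first of these calls was lost without liver 2, 3 or 4 (adjusted p from 0.0951 to 0.143) and with median centring. Mlx, the dimerisation partner of ChREBP, read -0.07 ± 0.28 (n = 5; 0.666). NRF2 targets outside the pentose phosphate pathway had 12 of 16 lower and 0 higher (median -0.71). Among the lower were Gsta2 at -2.18, Gstm3 at -1.98 and Nqo1, a standard NRF2 target, at -0.42. With a liver left out the count of lower genes ran from 9 to 12. Me1, counted above as a NADPH source and a ChREBP target, is among the 12 lower genes of this list. This list, and several of the lower genes above, were picked with the earlier results of these livers known.

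**Figure D4:**
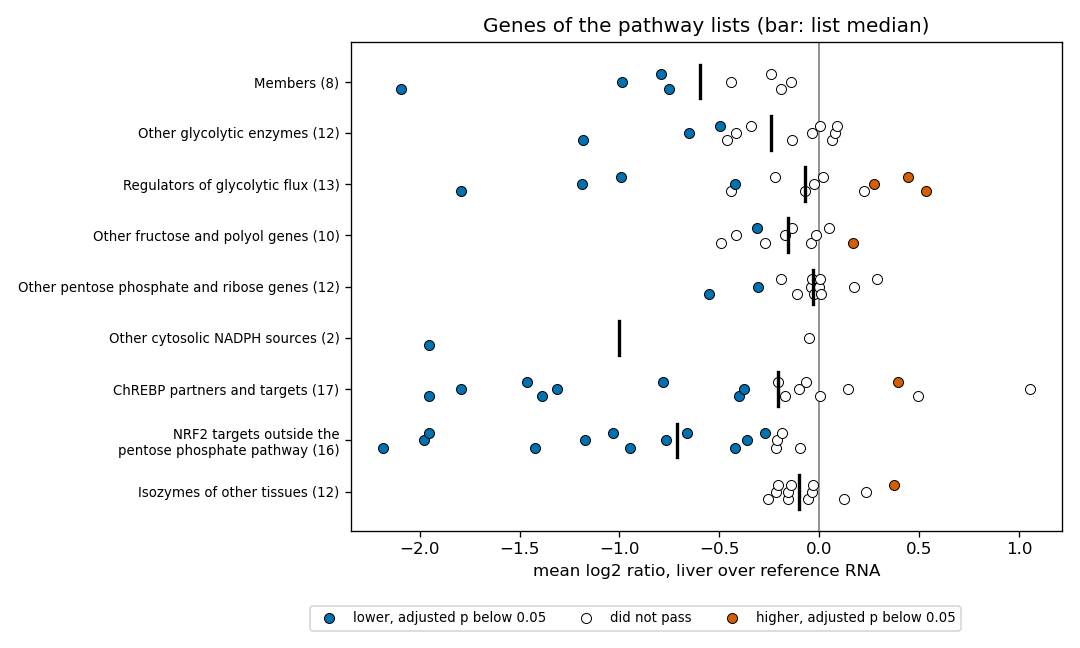
Mean log2 ratio of liver over reference (horizontal axis) of each tested gene in the 9 lists (rows, number of genes in brackets). Blue points passed as lower, orange as higher, white did not pass, and black bars are list medians, which include -0.71 for NRF2 targets and -0.03 for further pentose phosphate genes; 12 of 16 NRF2 targets are blue.

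Of 12 tested isozymes that serve other tissues 0 were lower by limma and 1 higher, Pgk2 at 0.37 (adjusted p = 0.0285), a call lost with median centring (0.255) and without liver 2, 3 or 4 (from 0.0556 to 0.109). Pkm, the pyruvate kinase of most tissues other than liver, read -0.20, -0.01, 0.16, 0.07 and -0.17, a mean of -0.03 ± 0.16 (n = 5; limma adjusted p = 0.797), while Pklr lay at -2.09. Pfkm, at -0.04 ± 0.30, and Pfkp, at 0.12 ± 0.19, did not pass (0.835 and 0.328).

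Across the arrays 77.3% to 81.2% of spots were well above background in the liver channel and 69.9% to 78.4% in the reference channel, 2.32% to 4.05% were outliers and 0 were saturated. All 8 hepatocyte markers on the array were well above background on every array in each channel, with a summed signal of 379064 to 565093 in the livers and 275664 to 444143 in the reference. Kupffer cell markers summed to 6542 to 9284 in the livers and to 8202 to 12312 in the reference, and sinusoidal endothelial markers to 2480 to 4431 and 3371 to 6292. The 5 arrays lay on 5 slides and were scanned on 1 day with 1 scanner.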

How the data were processed

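Total RNA of 5 livers was measured on 2-colour Agilent arrays. Per the file headers, the authors ran Agilent Feature Extraction 11.5.1.1, which gave median spot and background intensity values, not normalized, for each channel. The same files hold processed intensities, background-subtracted and dye-normalized, and the log10 of Cy5 over Cy3 that the authors' software took from them. The authors also deposited log2 ratios, and 99.4% of these matched processed liver over processed reference to 0.001 on the log2 scale. Their medians for livers 1 to 5 were -0.03, -0.07, -0.08, -0.10 and -0.03.

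Median intensities were corrected by normexp (offset 50) since mean intensities were not among the columns used here. Loess was run within arrays with control and outlier spots at weight 0, both then left out, in limma 3.58.1 under R 4.3.3. Probes entered the test when they exceeded background, by the scanner software, in liver or reference on 3 or more arrays and kept 3 or more values (31885 probes). The fit was intercept only, with eBayes trend and robust prior, two-sided. The reference's own spread is left out. Per-channel values were taken after loess and Aquantile. In simulated data on all 31885 probes, 98% of shifts of 0.5 (log2) and 100% of those of 1 or more were recovered. The simulated noise was normal, with the fitted prior variance at each probe's brightness, and no values were missing. Probes with a wider spread, such as Mlxipl (SD 0.50, n = 4), were not represented. The recovery therefore says nothing of shifts missed at such probes. The file headers name build mm8, so names came from RefSeq accessions (24375 of 41174 probes) in an annotation of GRCm38.p6, without coordinates other than that of the promoter printed. Probe sequences were not used here.

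The members and lists were chosen with earlier results of these data known. Named genes are the members, Pkm, Gpi1, G6pc, Txnip, Me1, Srebf1 and Gapdh, of each list up to 3 lowest and 3 highest genes and those called at 2-fold, and the 3 genes nearest in profile to Pklr, Mlxipl and Tkt. Tkfc, Pgls, H6pd, Mlx, Pdk2, Rpe, Shpk, Tigar, Gpam, Acaca, Pnpla3, Nqo1, Pfkm and other list genes were named outside that rule, some after their values were seen, to account for the calls. A few list genes are counted but not reported here by name.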

Additional observations from a re-analysis of the deposited data

How the results depend on the processing

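No paired analysis was possible because all samples form 1 group and no group shares its replicate numbers, and the slide could not be used as a block because each of the 5 slides holds 1 array. The number of lower member probes was 5, between 4 and 6 over the settings that keep all livers (other background correction, normalization, scaling, filter, prior, outlier spots, deposited ratios or 1 probe per gene) and between 4 and 5 without each replicate in turn; 0 were higher throughout. At 2-fold the count was 1, and 2 with median centring and with outlier spots kept, Tkt being added, and between 1 and 2 with a liver left out. With a liver left out, the mean of Khk ran from -0.41 to 0.023, turning sign without replicate 1 (0.023), and means ran from -2.40 to -1.84 for Pklr, from -1.08 to -0.91 for Tkt, from -0.86 to -0.69 for the brighter Pgd probe, from -0.81 to -0.62 for G6pdx, from -0.65 to -0.26 for Mlxipl and from -0.31 to -0.13 for Pfkl. No member probe passed the variance test under the settings run for it (0 in each).

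Over all probes 3681 were lower and 5160 higher, and without replicate 4 these were 1916 and 3016. At 2-fold 102 and 382 were called, against 323 and 1159 with processed signals and 321 and 1163 in the deposited ratios; the cause was not tested. With 1 probe per named gene 1902 were lower, 2117 higher, and 62 and 129 at 2-fold, of fewer probes tested. List counts moved by over 1.5 times as follows, beside those given with the lists. With median centring, 5 in place of 3 glycolytic enzymes, 2 in place of 1 fructose and polyol genes and 1 in place of 0 isozymes (also with outlier spots kept) were lower, and 1 in place of 3 regulators, 0 in place of 1 ChREBP targets and 0 in place of 1 isozymes were higher. With the probes of a gene averaged, lower counts were 2 in place of 1 for fructose and polyol genes and 0 in place of 2 for further pentose phosphate genes, and higher counts 1 in place of 3 for regulators and 0 in place of 1 for ChREBP targets. Without replicate 3 or 4, 2 in place of 1 fructose and polyol genes were lower and 0 in place of 1 ChREBP targets higher; without replicate 2, 3 or 4, 0 in place of 1 isozymes were higher; without replicate 3, 1 in place of 0 further pentose phosphate genes was higher. Fructose and polyol genes had 0 in place of 1 higher with processed signals, deposited ratios, the filter on both channels, no trended robust prior and any replicate left out. Precision is limited by the number of arrays, 5.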

Other observations

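Several list genes had tested probes that disagreed, which bears on any use of a gene's mean. Gpd1, the glycerol-3-phosphate dehydrogenase that links glycolysis to triglyceride, read -0.17 at its brighter probe (limma adjusted p = 0.327) and -0.69 at another (0.005). Gsr, glutathione reductase, which uses the NADPH of the pentose phosphate pathway, read -0.22 at its brightest probe and -0.60 and -0.15 at the others (adjusted p = 0.00277 and 0.158). Acaca had 1 probe at 0.07 and others at -0.65 and -0.34. Both tested probes of Gstm1 (-1.42 and -1.71) had the same sign.

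Pfkfb3, an inducible enzyme that makes the activator of phosphofructokinase, read 1.60 in liver 2 and between -0.93 and -0.35 in the other livers. Arrdc4, a sugar-induced relative of Txnip, was also highest in liver 2, at 1.27, and between -0.47 and -0.20 elsewhere. Liver 2 was the liver with the lowest Pklr, Mlxipl, Pfkl, Pgd and Tkt. Neutrophil markers had their highest mean log2 ratio in liver 2 as well, 0.64 against -0.19 to 0.10 in the others. There S100a8 read 1.00 and S100a9 1.17. Lymphocyte markers were highest there too, 0.32 against -0.17 to 0.03. This was not particular to these cells. Markers of hepatocytes (0.36), Kupffer cells (-0.03), bile duct (0.06, as in liver 1), muscle (0.37) and brain (0.23) also had their highest mean in liver 2. Sinusoidal endothelial (-0.44) and stellate cell markers (-0.30) were lowest there, and red blood cell markers were highest in liver 5 (-0.27). The part of any of these markers in these values was not tested. Neither Pfkfb3 nor Arrdc4 passed the test of the mean (limma adjusted p = 0.682 and 0.99), and these rows were picked after their values were seen.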
